A study of Mus musculus with 4 samples.

Results

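The Cyp2c cytochrome P450 genes of the mouse liver were followed on 4 Agilent arrays through 12 probes of 9 genes. The members were 10 named genes, Cyp2c29, Cyp2c37, Cyp2c38, Cyp2c39, Cyp2c40, Cyp2c44, Cyp2c50, Cyp2c54, Cyp2c55 and Cyp2c70, and every non-control probe carrying one of these names was taken, 12 of the 41174 probes on the array. Cyp2c50 had no probe of its own name. Cyp2c44 is listed as Cyp2c23 in the current RefSeq table. The animals were female BALBc mice, and each array held the Cy3-labelled liver RNA of 1 sample. Both groups were taken 20 days after inoculation: 2 samples have the treatment group control, and 2 have the treatment group LB1 and carry the word "stuff" in their titles. The study concerns a Lactobacillus (ostrich) and metabolism in mice, but the sample labels say neither what LB1 stands for nor what the controls received, and they give no age.

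Cytochromes P450 of the Cyp2c family are haem enzymes of the endoplasmic reticulum that insert oxygen into lipids and drugs with electrons passed on by P450 oxidoreductase. In mice the family has grown into a run of neighbouring genes, most of them expressed in hepatocytes, whose enzymes turn arachidonic and linoleic acid into epoxides and hydroxy acids, hydroxylate retinoic acid, and make the muricholic acids of rodent bile. Their transcription is known to respond to the nuclear receptors CAR and PXR and to depend on HNF4A.

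Values are log2 levels, the log2 of the background-corrected spot signal minus the same array's 75th percentile, and differences are LB1 minus control. Such values show a change against the other probes of an array and say nothing of the total RNA in a liver. In a bulk sample, fewer cells of a type and less RNA per cell cannot be told apart. Levels are compared only within a probe, since probes differ in how brightly they bind. A call is an adjusted p under 0.05 in limma, with Benjamini-Hochberg adjustment over all 22957 tested probes.

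All 12 probes lie on chromosome 19. Of these, 11 lie between 39116674 and 40228028 on mm9, the build of the probe coordinates in the files, counted from 1, and the Cyp2c44 probe lies farther along at 44079535 to 44079594. The 5 probes printed here are those that fell and were well above background on every array; all begin at base 1356 of the transcript or before. Capitals mark the 30 of 43 shared positions at which the Cyp2c38, Cyp2c40 and Cyp2c54 probes hold the same base, because these 3 probes begin at bases 768 to 800 of related transcripts and each cross an exon junction. The probes of Cyp2c37 and Cyp2c39 were not aligned and are in lower case throughout.
Cyp2c38: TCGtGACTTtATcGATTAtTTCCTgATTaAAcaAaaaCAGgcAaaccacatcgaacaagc
Cyp2c40: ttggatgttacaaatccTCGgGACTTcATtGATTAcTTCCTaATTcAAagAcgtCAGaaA
Cyp2c54: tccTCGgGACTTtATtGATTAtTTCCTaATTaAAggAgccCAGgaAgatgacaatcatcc
Cyp2c37: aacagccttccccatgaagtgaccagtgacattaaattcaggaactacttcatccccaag
Cyp2c39: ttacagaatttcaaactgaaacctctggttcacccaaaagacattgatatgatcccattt

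Over their overlap, the Cyp2c40 and Cyp2c54 probes were identical at 38 of 46 bases (82.6%). The Cyp2c38 probe matched the Cyp2c54 probe at 40 of 57 bases (70.2%) and the Cyp2c40 probe at 30 of 43 (69.8%). Genes of the family are related in sequence, but how alike their whole transcripts are was not checked. In the files, 3 of the 12 probes list more than 1 Cyp2c gene. The printed Cyp2c37 probe, at 40076439 to 40076498 on the plus strand, also lists Cyp2c50. The printed Cyp2c40 probe also lists Cyp2c68, and the other Cyp2c40 probe lists Cyp2c67, Cyp2c68 and Cyp2c69 as well. A value of these probes is therefore that of the listed genes together, and signal from other related genes in any probe of the family was not measured separately. The mapped positions of the Cyp2c38 probe span 31311 bases, of the Cyp2c40 probe 15639 and of the Cyp2c54 probe 22582, so each of these 60-base probes crosses at least 1 intron. Whether the remaining probes lie in coding sequence or UTR was not determined here.

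The LB1 arrays were dimmer than the control arrays. Control arrays had 75th percentiles of 410.9 and 414.7 signal units and LB1 arrays of 146.9 and 80.78, and 64 to 104 spots were saturated on the LB1 arrays against 266 and 297 on the control arrays. Slide 1 held replicate 1 of each group and slide 2 held replicate 2, so differences are also given within each slide. All 10 hepatocyte markers examined were well above background in both groups. Of these, 2 were lower, Serpina1c (-1.25) and Cps1 (-1.24), and 4 were called higher, all of them saturated in controls. Over all 15773 tested genes, each taken at its brightest probe, 9.78% were lower and 21.7% higher. Of 8 tested mesothelium markers 7 were higher on the LB1 arrays, and their summed level, on a linear scale relative to each array's 75th percentile, was 1.53 and 0.25 in controls and 13.5 and 44.0 in LB1; Lrrn4, one of them, was not well above background on either control array. The part of brightness, slide, mesothelial RNA or hepatocyte content in the Cyp2c differences was not tested. The number of arrays, 2 a group, limits the precision, and an exact permutation test of 1 probe has 6 assignments and cannot give a p below 0.333.

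Of the 12 Cyp2c probes, 6 were lower in LB1 livers and 0 were higher, and 6 did not pass. Over all tested probes, 13.2% were called lower, 19.2% higher and 32.4% either way. The 6 genes with a lower probe were Cyp2c37, Cyp2c38, Cyp2c39, Cyp2c40, Cyp2c54 and Cyp2c55, and the 3 without one were Cyp2c29, Cyp2c44 and Cyp2c70. At an unadjusted p under 0.05 the limma fit also gave 6 lower and 0 higher, against 19.8% and 28.9% of all tested probes. The Cyp2c55 probe passed the filter on dim probes through the control arrays alone, and such a pass can favour a lower value. Among the 11 probes well above background on every array, 5 were lower, against 16.3% of all such probes. The median difference of the 12 probes was -1.10, beside 0.16 over all tested probes.

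The 6 calls were lost when either control array was left out. A fit without 1 array takes its spread between arrays from the 2 arrays of the other group alone. Fits without a control array and fits without an LB1 array therefore measure different spreads, and their counts are not directly comparable. Without control replicate 1 or without control replicate 2 limma called 0 of the 12 probes, although 5 and 6 were lower at an unadjusted p under 0.05. Calls over all 22957 probes fell to 139 and 1 in the same fits, and 11.3% and 10.3% of all probes were lower at that unadjusted p. Without LB1 replicate 1 the count was 7, against 21.8% of all probes, and without LB1 replicate 2 it was 4, against 10.8%, when the Cyp2c39 probe and the printed Cyp2c40 probe were lost. At the 6 called probes both LB1 values lay below both control values. A downward difference within both slides follows from this and is no further support.

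Before scaling, the signal of all 12 probes was lower on both LB1 arrays than on both control arrays, by 2.69 to 24.2 times on the means. The dimmer LB1 arrays are part of both this count and this ratio. The same count over all tested probes was not made, so it does not set the Cyp2c probes apart. After scaling, both LB1 values lay below both control values for 8 probes, against 32.3% of all tested probes, and above them for 2, against 43.8%. LB1 replicate 2, from the dimmest array, was below LB1 replicate 1 at 8 of the 12 probes. Control replicate 2 was below control replicate 1 at 9 of them, on arrays of similar brightness. Neither count was set against all tested probes.

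**Figure D1:**
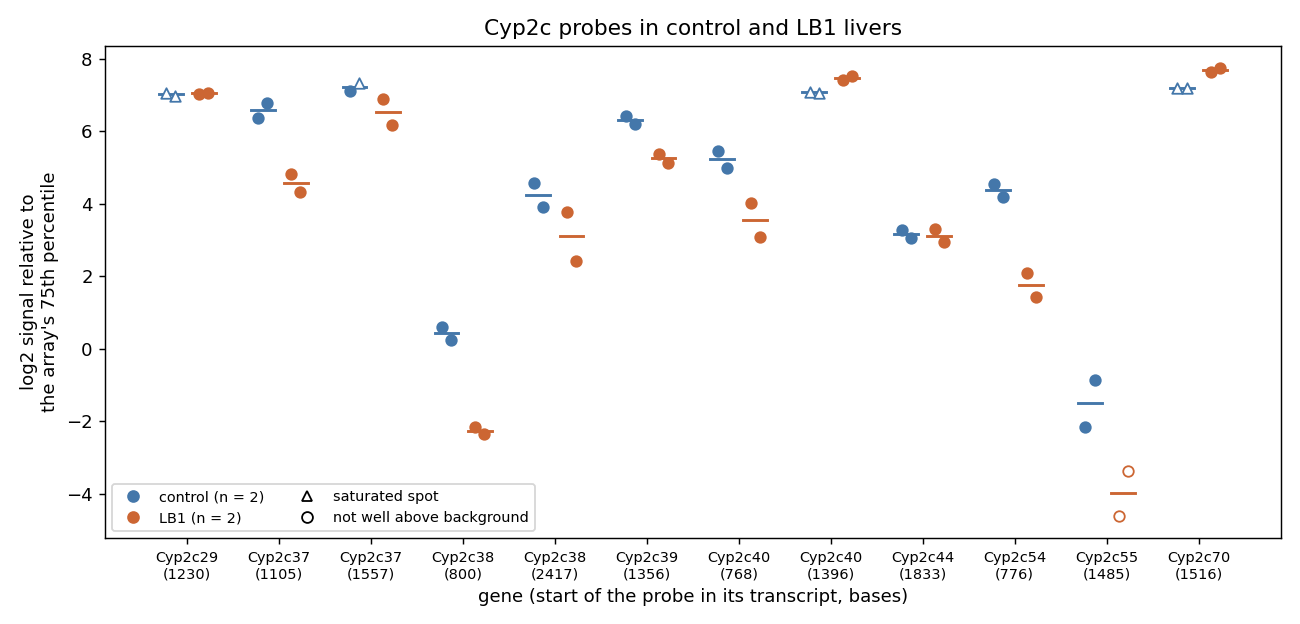
Scaled log2 level (log2 of the signal relative to the array's 75th percentile, y axis) of each Cyp2c probe (x axis, with the start of the probe in its transcript) in 2 control and 2 LB1 livers; points are arrays and bars are group means. Triangles are saturated spots and open circles are spots not well above background. The LB1 points of Cyp2c54 lie at 2.09 and 1.43, below controls at 4.54 and 4.19, whereas those of Cyp2c44 overlap the controls.

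Members known for oxidising arachidonic or linoleic acid come first: Cyp2c54, Cyp2c38, Cyp2c37, Cyp2c40, Cyp2c29 and Cyp2c44. Cyp2c54 encodes a hydroxylase and epoxygenase of these acids. Its probe, at 40122119 to 40144700 on the minus strand, read 4.54 and 4.19 in the controls and 2.09 and 1.43 in the LB1 livers. The group means were 4.36 ± 0.25 and 1.76 ± 0.47 (SD, n = 2 each). The groups were far apart, and the LB1 level was 6.07-fold lower, a log2 difference of -2.60 (SE 0.32, limma adjusted p = 0.0211). Within the slides the difference was -2.45 and -2.76.

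Cyp2c38, an arachidonic acid epoxygenase, had a pair of probes that did not give the same call. The junction probe, from 39479273 to 39510583 on the minus strand, read 0.61 and 0.24 in controls and -2.15 and -2.36 in LB1. Its difference of -2.67 (SE 0.25, limma adjusted p = 0.0201) is 6.38-fold and was -2.75 and -2.59 within the slides. The signals behind it were 625 and 489 units in controls and 33.1 and 15.8 in LB1, low on the scale of the array. With normexp background correction the same difference was -1.02 (limma adjusted p = 0.00196), so its direction held and its size did not.

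The second Cyp2c38 probe begins at base 2417 of the transcript and lies at 39464438 to 39464497. Its levels were 4.57 and 3.90 in the controls and 3.78 and 2.43 in the LB1 livers. LB1 lay below control without overlap, but the gap between the LB1 values was wide, and the difference of -1.14 (SE 0.52) did not pass in limma (adjusted p = 0.145). With the replicate number as a block the adjusted p in limma was 0.047. This was the call among the 12 that the block changed.

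Cyp2c37 encodes a hydroxylase that makes a hydroxyeicosatetraenoic acid from arachidonic acid. The probe it shares with Cyp2c50 read 6.37 and 6.77 in controls and 4.81 and 4.33 in LB1. The groups did not overlap. The difference was -2.00 (SE 0.29, limma adjusted p = 0.0215), a 4-fold lower level, and stood at -1.55 and -2.44 within the slides. It is the only probe here that bears on Cyp2c50, an epoxygenase of the same group, and the contribution of each gene to it cannot be told apart.

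The other Cyp2c37 probe, at 40086467 to 40086526 and starting at base 1557, lists Cyp2c37 alone. It read 7.11 and 7.32 in the controls, the second of them saturated, and 6.89 and 6.17 in LB1. Both LB1 values were below both controls, but the difference of -0.68 (SE 0.31), an upper limit through the saturated spot, did not pass in limma (adjusted p = 0.146). It passed in limma under other scalings, at -1.28 with normexp (adjusted p = 0.0132) and at -1.43 with quantile normalization (adjusted p = 0.0462).

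Cyp2c40, whose enzyme hydroxylates arachidonic acid near the end of the chain, was read by a junction probe at 39861388 to 39877026 on the minus strand. Levels were 5.46 and 4.98 in controls and 4.01 and 3.07 in LB1. All LB1 values were below control, and the difference was -1.68 (SE 0.39, limma adjusted p = 0.0348), a 3.21-fold lower level. The second Cyp2c40 probe, which 4 genes share, gave the opposite sign: 7.09 and 7.06 in controls and 7.40 and 7.52 in LB1, a difference of 0.39 (SE 0.21, limma adjusted p = 0.2). Both control spots were saturated, so the control level is a lower limit, the difference is an upper limit and its direction is not settled.

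Cyp2c29 is a major epoxygenase of mouse liver and a classical target of CAR. Its probe, at 39403642 to 39403701 on the plus strand, read 7.05 and 6.97 in controls and 7.02 and 7.06 in LB1. The groups overlapped, with a difference of 0.03 (SE 0.21, limma adjusted p = 0.909). Both control spots, at 54323 and 51817 units, were saturated, so this too is an upper limit. With normexp the difference was -0.56 and was called (limma adjusted p = 0.0067).

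Cyp2c44, another arachidonic acid epoxygenase, was unsaturated and above background on every array and did not pass. It read 3.26 and 3.05 in controls and 3.30 and 2.94 in LB1, and the groups overlapped. The difference was -0.03 (SE 0.25, limma adjusted p = 0.925), with 0.04 and -0.10 within the slides. Under normexp it was -0.54 (limma adjusted p = 0.0367). Among the 8 probes saturated on no array, this and the downstream Cyp2c38 probe were those not called.

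Cyp2c39 encodes a retinoic acid hydroxylase. Its probe, at 39642568 to 39642627 on the plus strand, read 6.41 and 6.19 in controls and 5.36 and 5.13 in LB1, so the arrays of each group lay close together and the groups were apart. The difference was -1.06 (SE 0.23, limma adjusted p = 0.0306), 2.08-fold lower, and the same -1.06 within each slide. Of the scalings tried, quantile normalization gave -1.44 and normexp -1.62.

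Cyp2c70 makes muricholic acids from chenodeoxycholic acid and its probe lies at 40227969 to 40228028 on the minus strand. It read 7.20 and 7.18 in controls, both saturated, and 7.63 and 7.73 in LB1. The difference of 0.49 (SE 0.21) did not pass in limma (adjusted p = 0.123). As an upper limit it has no settled direction, and it was -0.38 after quantile normalization and -0.11 with normexp. The deposited spot signals were 60580 and 60182 units in controls and 29192 and 17210 in LB1.

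Cyp2c55, which CAR and PXR activators induce and which is prominent in the colon, gave the dimmest member probe. It lies at 39116674 to 39116733 on the plus strand and read -2.15 and -0.85 in controls and -4.61 and -3.37 in LB1. Neither LB1 spot was well above background. The fitted difference was -2.49 (limma adjusted p = 0.0373). Counting each dim spot no lower than the lowest signal of any probe well above background on that array, the LB1 level was 3.97-fold lower. That floor is not a firm bound for this probe. With normexp the fitted difference was 0.22 (limma adjusted p = 0.536), and from the deposited series table it was -0.26 (limma adjusted p = 0.491).

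**Figure D2:**
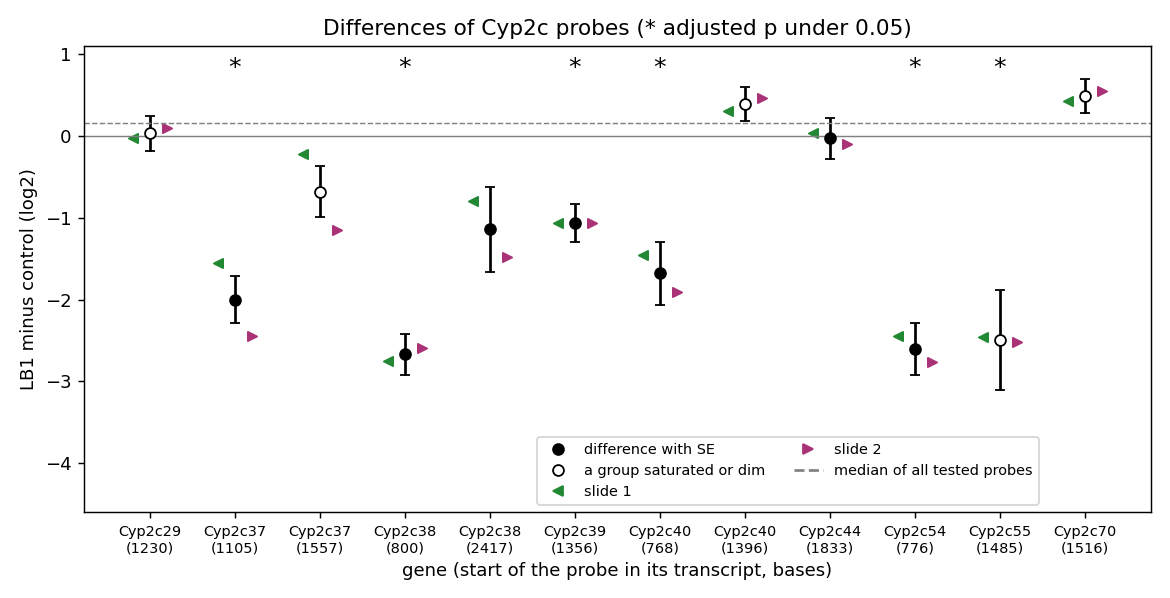
Difference LB1 minus control (log2, y axis) of the 12 Cyp2c probes, with the standard error of the limma fit; triangles are the differences within slide 1 and slide 2, open circles mark a probe saturated on a control array or not well above background in LB1, and stars mark limma adjusted p under 0.05. The 6 starred probes run from -2.67 for Cyp2c38 to -1.06 for Cyp2c39, below the dashed median of all tested probes at 0.16.

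Outside the members, Cyp2c65 and Cyp2c66 each had 1 probe. Cyp2c65 read -4.19 and -4.50 in controls and -5.60 and -4.96 in LB1, where it was not well above background, and its difference of -0.94 did not pass in limma (adjusted p = 0.0695). Its sign turned with the processing: limma called it lower after quantile normalization (-1.86, adjusted p = 0.0414) and higher with normexp (1.26, adjusted p = 8.48e-04) and from the deposited series table (1.05, adjusted p = 0.00233). Cyp2c66 was too dim to test. Cyp2c67, Cyp2c68 and Cyp2c69 appear only on the shared Cyp2c40 probes.

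The members were also ordered by the position of the probe in its transcript. Of the 6 probes starting between bases 768 and 1356, 5 were lower, with a median difference of -1.84. Of the 6 starting between 1396 and 2417, 1 was lower, the Cyp2c55 probe, with a median of -0.36; 3 of these 6, those of Cyp2c37, Cyp2c40 and Cyp2c70, were saturated in controls, which makes their differences upper limits and can raise the median. This split was chosen after the values were seen. The exception among the upstream probes was Cyp2c29, which was saturated in controls.

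Genes with a pair of probes allow that gap to be read within 1 named transcript. The limma fit over 6306 such pairs on the array called the upstream probe more lowered in 17.6% of them. The Cyp2c pairs reuse probes and arrays of the split above, so they are no independent support for it. The upstream Cyp2c37 probe also lists Cyp2c50. Both Cyp2c40 probes list Cyp2c68, and the downstream one also Cyp2c67 and Cyp2c69. The Cyp2c37 and Cyp2c40 pairs therefore compare unlike sets of genes, and the part of this in their gaps was not tested. For Cyp2c37 the upstream difference was 1.32 further down than the downstream one (-1.32, SE 0.24, limma adjusted p = 0.0245), and for Cyp2c40 the gap was -2.07 (SE 0.44, limma adjusted p = 0.0319). Saturated control spots downstream make both gaps upper limits in size. The Cyp2c38 pair was free of saturation, and its gap of -1.54 (SE 0.45) did not pass in limma (adjusted p = 0.0599), with -1.96 and -1.11 within the slides.

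Over the whole array the gap varied with the separation of the probes. Among 4241 pairs that were unsaturated and above background throughout, probes up to 100 bases apart differed by a median of -0.07. At 100 to 300 bases the upstream probe was the more lowered by a median of -0.34 and in 78.3% of pairs. At 300 to 600 bases, the separation of the Cyp2c37 pair, the median was -0.61, with quartiles of -1.10 and 0.05. At 600 to 1000 bases, the separation of the Cyp2c40 pair, it was -0.44, at 1000 to 2000 bases, that of the Cyp2c38 pair, 0.00, and above 2000 bases 0.43. Tested probes across an exon junction were lower in 20.7% of cases, against 12% of probes within 1 exon. The part of probe position in the Cyp2c calls was not tested.

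**Figure D3:**
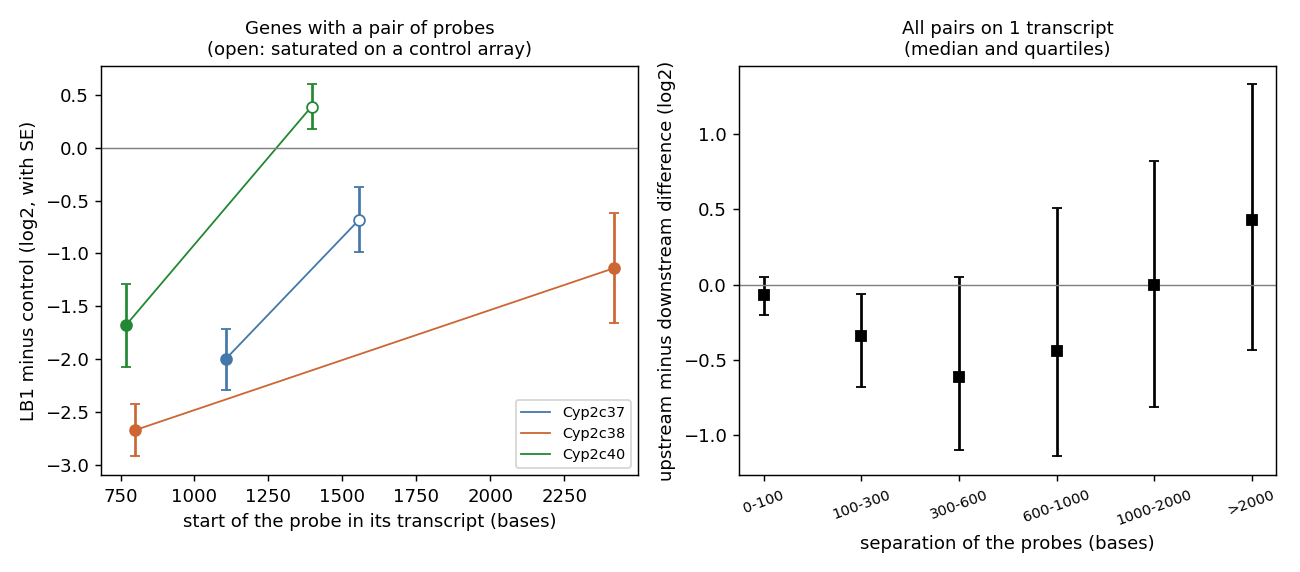
Left, difference LB1 minus control (log2, with SE) of the 3 Cyp2c genes with a pair of probes against the start of the probe in its transcript in bases; open points were saturated on a control array, and the upstream probe is the lower in each pair. Right, upstream minus downstream difference (log2) of all unsaturated pairs by their separation in bases, as median and quartiles, with the lowest median, -0.61, at 300 to 600 bases.

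Scaling moved the whole array. The median of all tested probes was 0.16 here, -0.09 after quantile normalization, -0.47 with the array median as reference and 0.44 with normexp, and the share of calls that were lower was 40.7%, 61.8%, 81.2% and 29.0% in the same order. The count of lower Cyp2c probes was 6, 6, 8 and 9, and 7 of 12 from the deposited series table, with 0 higher each time in limma. The share of all tested probes called lower was 13.2%, 17.3%, 31%, 20.2% and 16.4% in that order. Under these settings the probes of Cyp2c37 at 1105, Cyp2c38 at 800, Cyp2c39, Cyp2c40 at 768 and Cyp2c54 were lower each time. The signs of Cyp2c29, Cyp2c70 and the shared Cyp2c40 probe turned with the scaling.

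**Figure D4:**
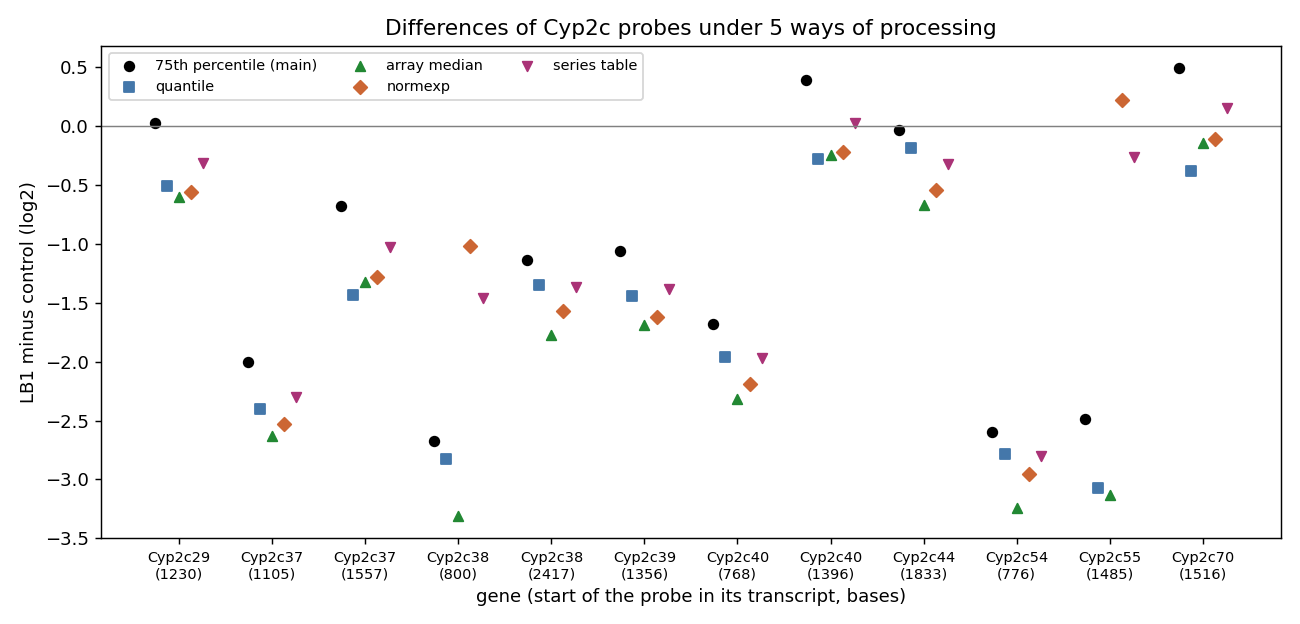
Difference LB1 minus control (log2, y axis) of each Cyp2c probe (x axis, with its start in the transcript) under 5 ways of processing; each symbol is a setting and 0 is no difference. The Cyp2c54 symbols lie together between -3.24 and -2.60, whereas those of Cyp2c55 run from -3.13 to 0.22.

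RefSeq promoter windows (GRCm38.p6, whose positions differ from mm9) were matched for 8 of the 10 members, with 9 windows. The 250 bases before the start were searched on both strands for CAAAGTC, the core of sequences that HNF4A is known to bind, for its extension CAAAGTCCA and for AGGTCA, the nuclear receptor half-site; a match to the extension is also a match to the core. CAAAGTC was found in 6 of the 9 windows, those of Cyp2c29, Cyp2c37, Cyp2c39, Cyp2c40 and Cyp2c70, and in 3.84% of all 32851 windows. The stretches are shown because members with a lower probe and members without one both hold the match, which is in capitals. Each is written 5′ to 3′ on the strand of the gene.
Cyp2c29, chr19:39286964-39287003, plus strand: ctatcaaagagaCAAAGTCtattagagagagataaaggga
Cyp2c39, chr19:39347220-39347259, plus strand: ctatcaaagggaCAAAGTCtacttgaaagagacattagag
Cyp2c39, chr19:39510724-39510763, plus strand: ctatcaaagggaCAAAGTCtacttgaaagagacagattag
Cyp2c37, chr19:39992296-39992335, plus strand: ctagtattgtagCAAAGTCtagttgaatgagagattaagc
Cyp2c40, chr19:39812832-39812871, minus strand: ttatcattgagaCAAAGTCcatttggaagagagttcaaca
Cyp2c70, chr19:40187323-40187362, minus strand: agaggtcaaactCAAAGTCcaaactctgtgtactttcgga

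The match lay 109 bases before the start in Cyp2c29, 114 and 86 in the 2 windows of Cyp2c39, 116 in Cyp2c37, 45 in Cyp2c40 and 64 in Cyp2c70. Cyp2c37 held a second match 184 bases before its start. CAAAGTCCA was found for Cyp2c40 and Cyp2c70 (0.384% of all windows), and AGGTCA for Cyp2c29, Cyp2c39 and Cyp2c70 (14%). Of the genes with a CAAAGTC match, Cyp2c37, Cyp2c39 and Cyp2c40 had a lower probe and Cyp2c29 and Cyp2c70 did not. The windows of Cyp2c38, Cyp2c50 and Cyp2c55 did not hold these letters. A match is a description of the sequence and not a binding site.

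Among transcription factors and nuclear receptors that act on Cyp2c genes, 16 were tested, of which 5 rose and 11 did not pass, with a median of 0.45, beside 0.30 over all 15773 tested genes, each gene taken at its brightest probe, of which 21.7% were higher and 9.78% lower. Cebpb, a factor of the acute phase and of hepatocyte differentiation, rose by 1.49 (SE 0.21, limma adjusted p = 0.0215). Foxa2, a liver pioneer factor, rose by 1.26. The CAR gene Nr1i3 differed by -0.20, the PXR gene Nr1i2 by 1.02 and Hnf4a by 0.54, none past the test. With quantile normalization 3 regulators were higher, and with normexp 5 were higher and 4 lower. The shares over all genes under these other settings were not computed, here or for the lists that follow.

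Of 17 tested targets of CAR and PXR outside the family, 9 were lower, 4 were higher and 4 did not pass, with a median of -1.29. Over all tested genes 9.78% were lower and 21.7% higher. Ugt1a1, the bilirubin glucuronosyltransferase, fell by 2.71 on the log2 scale (SE 0.23, limma adjusted p = 0.0201). Cyp2b10, the standard CAR marker, fell by 1.82, and Cyp3a25, a P450 of the Cyp3a family, fell by 1.53. Of the 4 higher, Cyp2a5, Gstm1 and Gstm3 were saturated on both control arrays, so their direction is not settled. Abcb1a, among the 9 lower, was not well above background in LB1 and was higher with normexp. With quantile normalization 10 targets were lower and 1 was higher, and with normexp 9 and 5.

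Partners of the P450 reaction gave 1 call among 9 tested genes, with a median of 0.01. Over all tested genes 21.7% were called higher. The call was Cyb5a, the cytochrome b5 that passes electrons to P450s, whose difference of 0.83 is an upper limit through saturation in controls. Cyb5a did not pass in limma with normexp (0.24, adjusted p = 0.105) or after quantile normalization, where its sign turned (-0.61, adjusted p = 0.0762), and with normexp 2 other partners were lower. Por, the electron donor of microsomal P450s, was saturated on 1 control array; its difference of at most 0.68 did not pass and was -0.01 after quantile normalization.

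Of 20 tested genes of fatty acid release and oxidation outside the family, 2 were lower and 18 did not pass, with a median of 0.30. Over all tested genes 9.78% were lower and the median was also 0.30. Cyp2j6, an epoxygenase of another P450 subfamily, fell by 1.45 (SE 0.23, limma adjusted p = 0.0221). Pla2g4a, a phospholipase that frees arachidonic acid, was lower by the fit but was not well above background in LB1, and its sign turned with normexp. Ephx2, which hydrolyses the epoxides, differed by 0.39 with both control spots saturated and did not pass. With quantile normalization 4 of the 20 were lower, and with normexp 7 were lower and 6 higher.

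Around the muricholic acid step of Cyp2c70, 5 of 12 bile acid genes fell, 2 rose and 5 did not pass, with a median of -0.02. Over all tested genes 9.78% were lower and 21.7% higher. Cyp7a1, which sets the rate of bile acid synthesis from cholesterol, fell by 2.95 (SE 0.36, limma adjusted p = 0.0211). Cyp27a1, a sterol hydroxylase, fell by 2.15, and Slc10a1, the bile salt importer of the hepatocyte, fell by 2.45. After quantile normalization 6 of the 12 were lower and the 2 risers no longer passed, Abcb11 at -0.37 and Hsd3b7 at 0.19. Of 12 retinoid genes around Cyp2c39, 9 did not pass and 3 were called higher, beside 21.7% of all tested genes. They were Aldh1a2, a retinal dehydrogenase, at 2.01 (SE 0.43, limma adjusted p = 0.0297), Rbp4, saturated in controls, and Rara, not well above background in LB1, and after quantile normalization none of the 3 passed (limma adjusted p = 0.0631, 0.0601 and 0.36).

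The P450 genes outside the family whose 4 array values came closest to the Cyp2c profile were sought among 59 candidates. The profile was the median of the 4 members, Cyp2c38, Cyp2c39, Cyp2c44 and Cyp2c54, whose brightest probe was above background and unsaturated throughout. It stood at 0.14 and -0.14 in controls and -0.70 and -1.49 in LB1, relative to the control mean. The Cyp2c38 probe in it was the downstream one, which like the Cyp2c44 probe was not called. The nearest by root mean square distance were Cyp4f18 (0.14), Cyp3a44 (0.19), Cyp2r1 (0.20), Cyp3a11 (0.21) and Cyp4v3 (0.28) on the log2 scale. Of these, Cyp4f18 and Cyp3a44 were not called (limma adjusted p = 0.0674 and 0.0677). The distances rest on the same 4 arrays, and the control spots of Cyp3a11, the main hepatic Cyp3a enzyme, were saturated.

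Cyp2e1, a P450 the study measured by PCR against Gapdh, was not called. Its array levels were 6.98 and 6.92 in controls, both saturated, and 8.28 and 7.64 in LB1. The difference of 1.01 (SE 0.29) is an upper limit and did not pass in limma (adjusted p = 0.0524), and Gapdh differed by -0.04 (adjusted p = 0.919). With normexp Gapdh differed by -0.62 and was called lower (limma adjusted p = 0.0215), and Cyp2e1 differed by 0.41 (adjusted p = 0.172). After quantile normalization Gapdh was at -0.47 and Cyp2e1 at 0.35, neither called (limma adjusted p = 0.146 and 0.335).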

How the data were processed

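The authors' deposited scanner files give linear spot intensity made with Feature Extraction 10.5.1.1, as the file headers state; background had been removed from the processed signal, with no step between arrays. The deposited series table holds rounded mean intensity, within 0.5 of the scanner's mean signal in 100% of spots. Control spots were left out. The log2 signal was scaled to the 75th percentile of 43379 non-control spots, and spots of a probe were averaged (41174 probes). The 22957 probes that 1 or both groups had well above background on each of their arrays were tested. Comparisons were fitted in R 4.3.3 with limma 3.58.1 (lmFit, eBayes) on all 4 arrays without covariates, with Benjamini-Hochberg adjustment, after a test on simulated data. Each sample is labelled as a mouse, and p-values measure the spread between these 4.

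Probe names were updated through RefSeq (GRCm38.p6): 24844 by accession, 6045 by current symbol and 1810 by an older one; 8475 kept the file's name. All member probes and other Cyp2c probes were named, the 3 genes of smallest p among each list's calls, the 5 nearest P450s, Cyp2e1 and Gapdh; other genes were named after their values were seen, and 1 gene the rule takes is not reported here. Members and lists were chosen with earlier results of these data known. Alternatives were normexp (offset 50), quantile and median scaling, 2 filters, trended variance, the block, the series table, the methods' t-test, and leaving out saturated probes or each array.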

Additional observations from a re-analysis of the deposited data

How the results depend on the processing

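The 6 lower Cyp2c probes became 7 with the replicate number, which is also the slide, as a block. Over all tested probes 12.1% were lower with the block, against 13.2% in the main fit. Calls in either direction numbered 6956 against 7433. Same-numbered arrays deviated together with a correlation of 0.151 over the tested probes. With 2 arrays a group their deviations mirror each other, so this value cannot show whether the slide matters. The block is not the main fit because the labels do not say that a replicate number marks a shared batch. Among the members the block changed the call of the downstream Cyp2c38 probe alone. The methods' t-test gave 4 lower Cyp2c probes unadjusted with at least 2-fold, against 8.19% of all tested probes. After Benjamini-Hochberg it gave 0 lower Cyp2c probes and 0 calls over all probes. In either direction 4109 probes passed unadjusted with at least 2-fold, and 7012 had an unadjusted p under 0.05. Leaving out each array gave 0 to 7 lower Cyp2c probes and 1 to 11023 calls over all probes, the lowest counts coming without a control array. Over all probes there were 15983 calls with normexp, 20664 without a filter on dim probes and 14476 from the series table. Of the 85 tested pathway genes, 16 were lower, and 30 with normexp, while 15 were higher, and 4 with quantile normalization. With normexp the sign turned for Cyp2c29 (-0.56, called) and Cyp2c55 (0.22, call lost), and, without a call in either fit, for the shared Cyp2c40 probe (-0.22) and Cyp2c70 (-0.11); the cause was not tested. No alternative called 1 of the 12 member probes higher in limma. Among fits that kept all 4 arrays, trended variance and the stricter filter each gave 1 higher at an unadjusted p under 0.05. Over all probes tested in these fits the shares were 29.9% and 35.1%. The methods' t-test gave 2 higher, against 17.1% of all probes. Signal over background limits Cyp2c55, and saturation limits Cyp2c29, Cyp2c70, the shared Cyp2c40 probe and, on 1 control array, the downstream Cyp2c37 probe.

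Over the alternatives that kept it, the adjusted p of the Cyp2c54 probe ran from 3.29e-08 to 0.14, of the upstream Cyp2c38 probe from 2.07e-08 to 0.132, of the Cyp2c37 probe shared with Cyp2c50 from 2.03e-06 to 0.143, of the upstream Cyp2c40 probe from 1.63e-05 to 0.196 and of the Cyp2c39 probe from 5.67e-04 to 0.201, in limma or the methods' t-test with Benjamini-Hochberg adjustment. The differences of these 5 probes were below 0 under each alternative.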
